A study of Mus musculus with 2 samples.

Results

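The AMPA and NMDA receptor subunits were described in the postpartum brain of mice lacking TDAG51, listed on the array as Phlda1. The member probes were found by gene name, as every non-control probe whose gene name in the scanner files was Gria1, Gria2, Gria3, Gria4, Grin1, Grin2a, Grin2b, Grin2c, Grin2d or Grin3a. The 10 genes were held by 22 probes of 41174 on the array, with 12 probes for the 4 AMPA subunit genes and 10 for the 6 NMDA subunit genes. Total RNA came from the whole brain of 8-week-old female C57BL/6J dams on postpartum day 0, and 2 two-colour Agilent arrays were hybridised. TDAG51-/- dams were labelled with Cy3 on both arrays. TDAG51+/+ dams were labelled with Cy5 on the first array, and TDAG51-/-Tg2 dams were labelled with Cy5 on the second. TDAG51-/-Tg2 dams also lack the endogenous gene and carry a TDAG51 transgene under the brain-specific BAI1-AP4 promoter, in a single transgenic line. That promoter is described as active chiefly in cerebral cortex and hippocampus. The first array asks which transcripts differ when TDAG51 is missing, and the second asks which differ between its absence and its return to the brain by the transgene. The number of dams behind each RNA sample is not given in the sources used here, no array was replicated and no dyes were swapped. No test was therefore possible, no p-value is given, and a dye effect and a genotype effect cannot be told apart.

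AMPA receptors are glutamate-gated channels assembled from the GluA subunits that the Gria genes encode, and they carry most fast excitatory transmission in the brain. The edited GluA2 subunit, encoded by Gria2, makes the channel nearly impermeable to calcium. NMDA receptors need the GluN1 subunit, encoded by Grin1, together with GluN2 or GluN3 subunits. Those of GluN1 and GluN2 open when glutamate and a co-agonist, glycine or D-serine, are bound while the membrane is depolarised. Grin2a and Grin2b are the main GluN2 genes of the forebrain, Grin2c is best known from cerebellar granule cells and Grin2d from the brainstem and diencephalon. Gria4 is known for high levels in the cerebellum and brainstem relative to the hippocampus.

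The results turned on the Grin2b and Gria4 probes, so the first 30 bases of each 60-base probe are shown from 5′ to 3′, as deposited in the scanner files. The positions are those of the files, on the mouse build mm7. No annotation of that build was used here, so exon, intron and UTR are not given. The 4 Grin2b probes lie on the minus strand of chromosome 6 and are listed from the 5′ side of the gene to its 3′ side. The first pair is chr6:136187779-136187838 and chr6:136186523-136186582, designed on AK002963, and the second pair is chr6:135747743-135747802 and chr6:135746934-135746944, designed on NM_008171. The last position covers only part of its probe in the file.
Grin2b A_51_P229869: gctctgcaaagagtcgtagtgaacttccca
Grin2b A_52_P367017: aacccttaattgccggagactccttaaatc
Grin2b A_52_P248920: ctgctccttgggagaagaacctgaccaatg
Grin2b A_51_P265765: tcagcaagtcgctctaccctgaccgggtca

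The 4 Gria4 probes lie on the minus strand of chromosome 9, again from the 5′ side to the 3′ side, at chr9:4580544-4580603, chr9:4419626-4419685, chr9:4337362-4337421 and chr9:4335595-4335654. The first was designed on AK047179 and the other three on NM_019691.
Gria4 A_52_P153588: gatatcagatgattctttacaaccccattt
Gria4 A_52_P349182: ttgaccactatggacgtagagttaattaca
Gria4 A_51_P501735: cgattagacagagctcgggattggctgtca
Gria4 A_52_P279527: tcccattcaataactgtgtgtcactacaat

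The subunit genes are related, so every pair of the 22 probes was aligned without gaps on the same strand. Of 231 pairs, the closest was a Gria1 probe (chr11:57370973-57371032, plus strand) and a Gria3 probe (chrX:36746442-36746501, plus strand), which shared 43 identical bases over an overlap of 56. No other pair shared more than 26 identical bases. Both sequences of the closest pair are shown whole. Probes were aligned with each other and not with whole transcripts, so cross-hybridisation was not tested for any member probe. Capitals mark the bases identical in the alignment.
Gria1 A_51_P498031: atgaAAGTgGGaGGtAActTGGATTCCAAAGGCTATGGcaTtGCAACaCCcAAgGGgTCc
Gria3 A_52_P179309: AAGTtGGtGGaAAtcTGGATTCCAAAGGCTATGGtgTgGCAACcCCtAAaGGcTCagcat

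Each member probe had 1 spot on each array. None was saturated, and 21 of 22 were well above background in all 4 channels. The exception was Grin3a A_51_P146837, which was not well above background in any channel and has no fold. Spots of the same probe differed by a median SD of 0.06 on the log2 scale on each array, over 245 probes with at least 5 spots, which measures technical spread alone. Phlda1, the targeted gene, gave an intensity of 350 in TDAG51-/- and 7283 in TDAG51+/+ on the first array, a 17.3-fold difference. Neither TDAG51-/- (44.1) nor the sample labelled TDAG51-/-Tg2 (50.5) was well above background at this probe on the second array. Whether the transgene contains this probe's sequence is not given in the sources used here, so the probe does not check the transgene label. The study measured the transgene in TDAG51-/-Tg2 brain by other methods (RT-PCR and immunofluorescence), which were not analysed here, and directions against TDAG51-/-Tg2 follow the array's label.

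A probe was counted as lower or higher when the normalised ratio of TDAG51-/- to the control reached 2-fold, the cut-off of the study's methods. Compared to TDAG51+/+, 2 of 21 measured member probes were lower, against 4.42% of all measured probes, and 3 were higher, against 4.9%. Compared to TDAG51-/-Tg2, 5 of 21 were lower, against 3.85% of all measured probes, and 2 were higher, against 4.73%. Compared to both controls, 2 were lower, both from Grin2b, against 1.37% of all measured probes, and 2 were higher, both from Gria4, against 2.7%. With each array centred on its median in place of the intensity-dependent (loess) correction, the counts against both controls were 4 lower and 1 higher. No share of all probes is given for that setting. At any size, 11 of the 21 probes were lower than both controls, 7 were higher than both and 3 had opposite signs. No share of all probes is given for counts at any size, so these are not a result about the members. The median log2 ratio of the 21 probes was -0.18 over TDAG51+/+ and -0.13 over TDAG51-/-Tg2, beside 0.012 and 0.015 for all measured probes. The comparisons share the TDAG51-/- genotype, so their values are given side by side and their likeness is not a result.

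**Figure D1:**
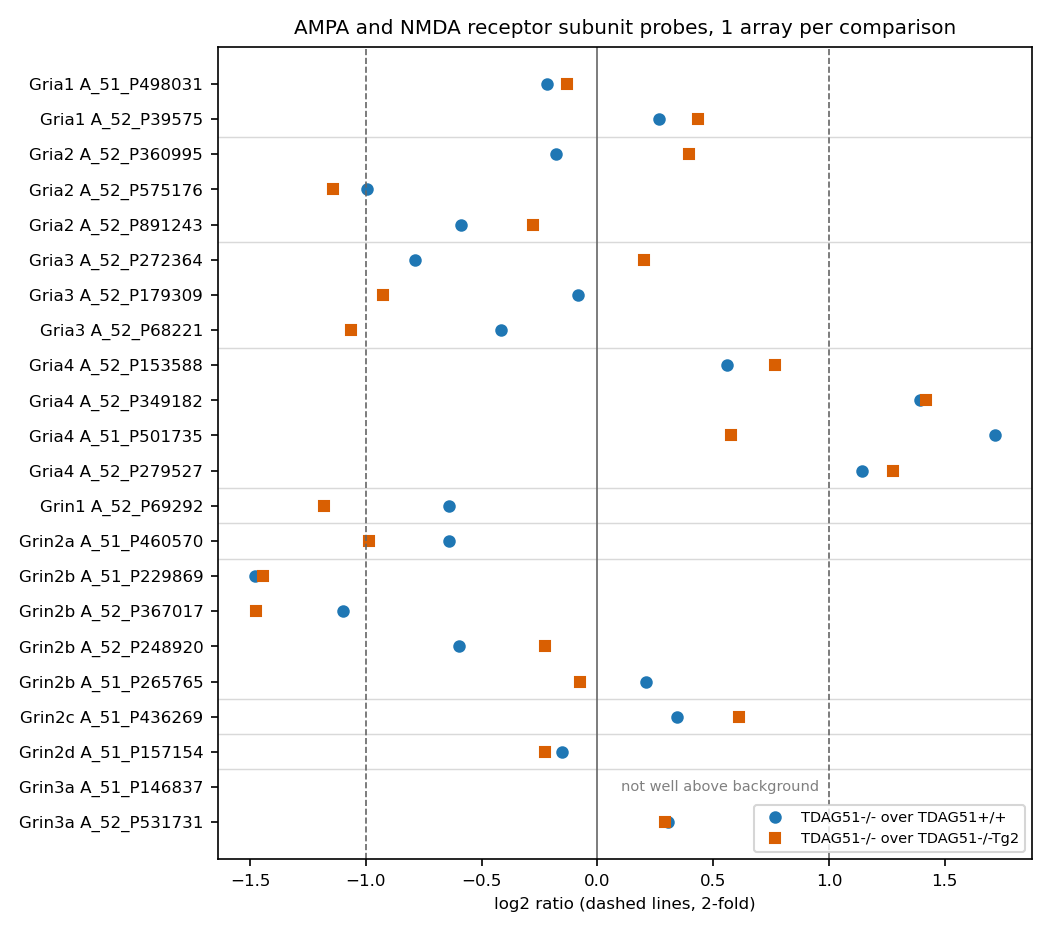
Log2 ratio (x axis) of TDAG51-/- to TDAG51+/+ (circles) and to TDAG51-/-Tg2 (squares) for each member probe (y axis), with 1 array per comparison, no error bars and dashed lines at 2-fold. Gria4 A_52_P349182 and A_52_P279527 lie right of the upper line in both comparisons, Grin2b A_51_P229869 and A_52_P367017 lie left of the lower line in both, and Grin3a A_51_P146837 has no point.

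Genes that mark brain regions differed between the same channels, so their values stand beside the receptor results. In each list a gene stands by its brightest probe. Of all measured genes, 1.7% were at least 2-fold lower and 2.65% at least 2-fold higher than both controls. Of 10 cerebellar markers, 9 were at least 2-fold higher in TDAG51-/- than in both controls, and their summed normalised level was 391054 and 399835 in the TDAG51-/- channels, 91975 in TDAG51+/+ and 95790 in TDAG51-/-Tg2. Zic1, Cbln1 and Pcp2 were saturated in TDAG51-/-, so those sums are lower bounds. All 10 markers were above background in TDAG51-/-, and Fat2 was not well above background in TDAG51-/-Tg2. Of 10 hindbrain markers, 6 were higher than both controls, with summed levels of 18185 and 17019 in TDAG51-/-, 12031 in TDAG51+/+ and 10700 in TDAG51-/-Tg2. The sums are weighted to Hoxb6, the brightest of the list, whose log2 ratios were -0.0039 over TDAG51+/+ and -0.05 over TDAG51-/-Tg2. Hoxc4 (-0.41 and -0.32) and Hoxa4 (-0.17 and -0.48) were lower and Hoxb4 (0.29 and 0.68) was higher, all by less than 2-fold. Of 10 striatal markers, 8 were lower than both controls, with summed levels of 64531 and 61116 in TDAG51-/- against 155681 and 157239. Of 10 cortical and hippocampal markers, 4 were lower than both controls, with summed levels of 98929 and 88054 in TDAG51-/- against 153903 and 162669. Another of these markers, Nrgn, was saturated in both control channels, with bounds of at least 1.22-fold and at least 1.44-fold lower. It may therefore also be past 2-fold, and the control sums are lower bounds. No marker of neurons in general (10), astrocytes (8) or oligodendrocytes (8) passed 2-fold against both controls. Among these, Uchl1, Eno2, Aldoc, Slc1a3, S100b, Cnp and Mag were saturated in at least the control channel of both arrays and Syn1 in that of the second, so they have no measured fold there and say nothing about a difference. The astrocyte marker Slc1a2 was saturated in both control channels, with bounds of at least 1.55-fold and at least 1.40-fold lower. Whether it passed 2-fold is not known. The neuron marker Syt1 passed 2-fold downward against TDAG51-/-Tg2 alone, with log2 ratios of -0.57 over TDAG51+/+ and -1.29 over TDAG51-/-Tg2. The astrocyte marker Aqp4 passed 2-fold upward against TDAG51-/-Tg2 alone, with log2 ratios of 0.96 and 1.28. The part of these regional differences in the receptor values was not tested. In whole-brain RNA, fewer cells of a type and less RNA per cell cannot be told apart.

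Gria4 was the AMPA subunit gene with the higher ratios in TDAG51-/-. Its probe A_52_P349182 gave intensities of 594 in TDAG51-/- and 230.0 in TDAG51+/+ (first array), then 559 in TDAG51-/- and 232 in TDAG51-/-Tg2 (second array). Later values are given in this order. Both TDAG51-/- channels were above both control channels, and the normalised ratio was 2.63 against TDAG51+/+ and 2.67 against TDAG51-/-Tg2. The probe closest to the 3′ side, A_52_P279527, gave 8905 and 5265, then 7763 and 4134. It was 2.21-fold and 2.42-fold higher in TDAG51-/-. Over all settings its log2 ratios fell as low as 0.76 and 0.91, and it was under 2-fold against TDAG51+/+ under median centring and without normalisation.

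The remaining Gria4 probes were higher in TDAG51-/- too, by amounts that differed between the controls. A_51_P501735 gave 2038 in TDAG51-/- and 694 in TDAG51+/+, a 3.29-fold difference, but 2078 in TDAG51-/- and 1650 in TDAG51-/-Tg2, a 1.49-fold difference. Its TDAG51-/- readings were nearly equal, and the normalised TDAG51-/-Tg2 level lay 1.18 above that of TDAG51+/+ on the log2 scale. A_52_P153588, 244.9 kb upstream of the last probe, gave 192 and 134, then 202 and 125, 1.47-fold and 1.70-fold higher. All 4 Gria4 probes kept a positive ratio in both comparisons under each of the 6 normalisation settings. In the same channels 9 of 10 cerebellar and 6 of 10 hindbrain markers were at least 2-fold higher than both controls. The share of all measured genes was 2.65%, and the part of the markers in the Gria4 values was not tested.

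The Gria2 probes did not move alike. A_52_P575176, designed on NM_013540, gave 10984 in TDAG51-/- and 32415 in TDAG51+/+, and 12415 in TDAG51-/- and 41746 in TDAG51-/-Tg2. Both TDAG51-/- readings were well below both control readings, and the normalised ratios were 1.99-fold and 2.20-fold lower, on either side of the 2-fold line. In the deposited ratios, under median centring and without normalisation it passed 2-fold in both comparisons, and its log2 ratios over all settings were -1.56 to -0.98 over TDAG51+/+ and -1.75 to -1.09 over TDAG51-/-Tg2. A_52_P891243, 3.03 kb further 3′, gave 184 and 295, then 209 and 293, 1.51-fold and 1.21-fold lower. A_52_P360995, designed on BC048248, gave 165 and 196, then 127 and 97.7, with log2 ratios of -0.18 and 0.40 that point in opposite directions.

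Gria3, on the X chromosome, differed more between TDAG51-/- and TDAG51-/-Tg2 than between TDAG51-/- and TDAG51+/+ at the pair of probes designed on its RefSeq transcript. A_52_P68221 gave 465 and 694, then 546 and 1362, 1.33-fold and 2.09-fold lower in TDAG51-/-. A_52_P179309, shown above beside its Gria1 relative, gave 895 and 1069, then 819 and 1843, 1.06-fold and 1.90-fold lower. In both probes the TDAG51-/-Tg2 channel stood above the other three. The upstream probe A_52_P272364, designed on AK161163, gave 146 and 280, then 145 and 142, which was 1.72-fold lower than TDAG51+/+ and 1.15-fold higher than TDAG51-/-Tg2. Here TDAG51+/+ stood apart.

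Gria1, the most studied AMPA subunit gene of hippocampal plasticity, stayed under 2-fold at both probes. A_51_P498031 gave 7034 and 11084, then 5829 and 8470, with log2 ratios of -0.22 and -0.13. A_52_P39575 gave 10528 and 12296, then 10499 and 10934, with log2 ratios of 0.27 and 0.43. For this probe the raw readings were lower in TDAG51-/- while the normalised ratios were higher. Without normalisation the median log2 ratio of all measured probes was -0.19 and -0.25. The loess correction depends on intensity, and it moved the ratios of this bright probe by more than those medians. Without normalisation both signs turned, to -0.22 and -0.06, and under median centring the ratio over TDAG51+/+ turned to -0.07.

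**Figure D2:**
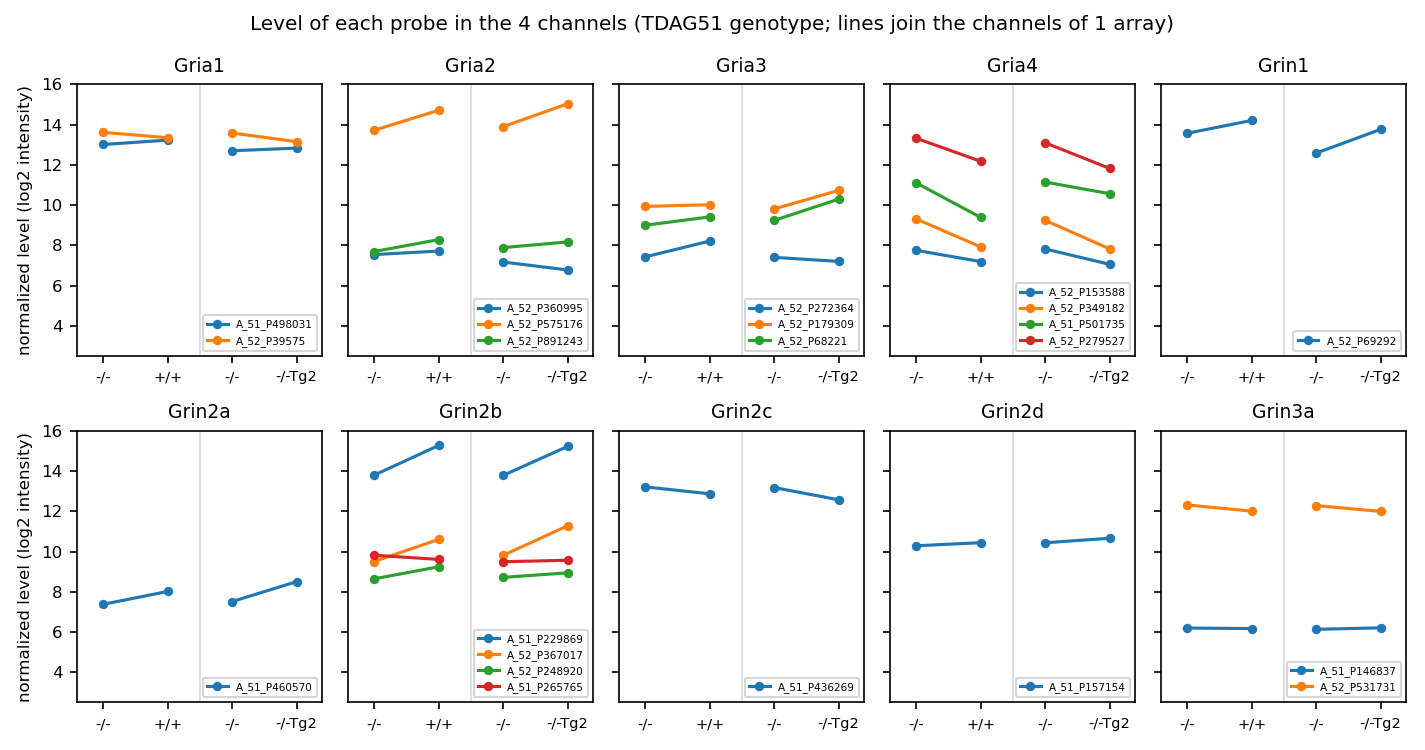
Normalised level (y axis, log2 intensity after loess and scaling between arrays) of each probe in the 4 channels (x axis, TDAG51 genotype), with 1 panel per gene and lines that join the channels of 1 array. The TDAG51-/- point is the higher of each pair for all 4 Gria4 probes and the lower of each pair for the Grin1 and Grin2a probes and for Grin2b A_51_P229869 and A_52_P367017. Levels of different probes are not comparable.

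Among the NMDA subunits, Grin2b held the lowest ratios and, against TDAG51+/+, the widest spread of ratios among the probes of a gene. A_51_P229869 gave 11608 in TDAG51-/- and 49094 in TDAG51+/+, and 11481 in TDAG51-/- and 47778 in TDAG51-/-Tg2. The TDAG51-/- readings almost coincided, as did the control readings, and the ratio was 2.79-fold and 2.72-fold lower. A_52_P367017 gave 666 and 1630, then 818 and 2723, 2.14-fold and 2.78-fold lower. Both probes stayed past 2-fold against both controls under each of the 6 normalisation settings, the first at log2 ratios of -2.08 to -1.43 over TDAG51+/+ and -2.06 to -1.40 over TDAG51-/-Tg2.

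The Grin2b probes designed on NM_008171 did not follow the pair on AK002963. They lie on the 3′ side of the gene, and the pair on AK002963 lies 440.9 and 439.6 kb upstream of the last of them. A_52_P248920 gave 363 and 612, then 384 and 523, 1.51-fold and 1.17-fold lower. A_51_P265765 gave 827 and 805, then 657 and 814, with log2 ratios of 0.21 and -0.07. The latter probe thus differed by little between TDAG51-/- and either control. A search made after these values were seen found the probe TC1526673 further 3′ on the same strand, with no gene named. It was saturated in both control channels, and TDAG51-/- was at least 1.64-fold below TDAG51+/+ and at least 2.17-fold below TDAG51-/-Tg2. Which transcripts carry the AK002963 sequence cannot be read from these files, and the differences between the pairs were not tested. In the same channels 4 of 10 cortical and hippocampal and 8 of 10 striatal markers were at least 2-fold lower than both controls. The share of all measured genes was 1.7%, and the part of the markers in the Grin2b values was not tested.

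**Figure D3:**
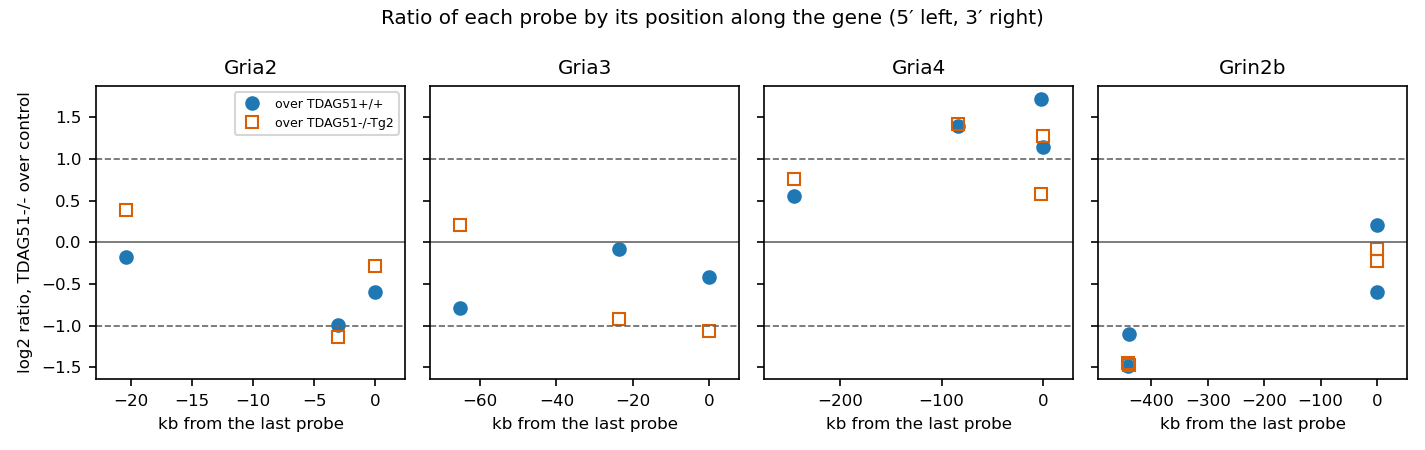
Log2 ratio of TDAG51-/- to TDAG51+/+ (circles) and to TDAG51-/-Tg2 (open squares) on the y axis against the distance in kb from the probe closest to the 3′ side (x axis) for Gria2, Gria3, Gria4 and Grin2b. The Grin2b pair at 440.9 and 439.6 kb lies below the lower dashed line (2-fold) and the pair at the 3′ side lies above it, whereas all Gria4 probes lie above 0.

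Grin1, the obligatory subunit, has a single probe. It gave 10113 in TDAG51-/- and 22847 in TDAG51+/+, and 5280 in TDAG51-/- and 16556 in TDAG51-/-Tg2. TDAG51-/- was the lower channel on each array, by 1.56-fold and 2.27-fold. The TDAG51-/- channels themselves differed by -0.98 on the log2 scale (second array minus first) after normalisation, nearly 2-fold, the largest such difference of any measured member probe, and the difference between the ratios is no larger than that. Under median centring and without normalisation Grin1 was past 2-fold against both controls, with log2 ratios over TDAG51+/+ of -1.18 to -0.62 over all settings.

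Grin2a, the GluN2 gene that rises as forebrain synapses mature, gave 145 and 244, then 154 and 379. TDAG51-/- was lower than both controls, by 1.56-fold and 1.98-fold. The second value was past 2-fold in the deposited ratios, in the scanner software's ratios, with no offset added and without normalisation, with a lowest log2 ratio of -1.44.

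The other NMDA subunits stayed under 2-fold. Grin2c gave 8159 and 8641, then 8100 and 7111, with log2 ratios of 0.34 and 0.61. The first turned to -0.08 without normalisation. Grin2d gave 1148 and 1467, then 1273 and 1760, with log2 ratios of -0.15 and -0.22. The glycine-binding subunit gene Grin3a, at its measured probe A_52_P531731, gave 4535 and 4557, then 4487 and 4620, with log2 ratios of 0.31 and 0.29 that turned to -0.01 and -0.04 without normalisation.

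The TDAG51-/- channels of the arrays give a measure of how far a reading moves from array to array, although whether both held the same RNA is not given in the sources used here. After scaling, the 21 measured member probes differed between them by a median of 0.14 on the log2 scale, beside 0.10 for all measured probes, and none by 2-fold, against 0.27% of all probes. The targeted gene Phlda1 was not alike in these channels. It read 350 in TDAG51-/- on the first array, well above background, and 44.1 on the second, not well above background. The cause was not tested. The TDAG51-/-Tg2 and TDAG51+/+ channels, compared across arrays, differed by a median of 0.32 for the member probes and 0.27 for all probes. In that comparison 2 member probes were past 2-fold, Gria4 A_51_P501735 at 1.18 (log2) and Gria3 A_52_P272364 at -1.01, against 6.81% of all probes. Precision is limited by the single array of each comparison.

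AMPA receptors work with auxiliary subunits, and these genes moved in both directions. Of 16 auxiliary and biogenesis genes measured, 4 passed 2-fold downward and 2 upward in both comparisons, beside 1.7% and 2.65% of all measured genes. The counts were also 4 and 2 against TDAG51+/+ alone, beside 4.97% and 4.61%, and 4 and 2 against TDAG51-/-Tg2 alone, beside 4.2% and 4.47%. The list's median log2 ratios were -0.33 and -0.44, where the medians of all genes were -0.0098 and 0.0066. Lower were Nptx2, a secreted pentraxin that clusters AMPA receptors (log2 ratios of -1.64 over TDAG51+/+ and -2.87 over TDAG51-/-Tg2), the transmembrane regulator Cacng3 (-1.94 and -1.78), Shisa9 (-1.25 and -1.63) and the cornichon Cnih3 (-1.47 and -1.12). Higher were the transmembrane regulator Cacng7 (3.09 and 2.85), whose intensities were 4079 and 538, then 4339 and 700.1, and the auxiliary protein gene Gsg1l (1.75 and 1.67). Cacng2, which encodes stargazin, the auxiliary subunit of cerebellar granule cells, stood at 0.69 and 0.36, and its other probes at -0.16 to 0.42 and -0.24 to 0.18. The other Shisa9 probe stood at -0.36 and -0.73.

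Scaffold genes anchor both receptor classes at the synapse. Of 17 measured, 2 passed 2-fold downward and 1 upward in both comparisons, beside 1.7% and 2.65% of all measured genes. The counts were 4 lower and 1 higher against TDAG51+/+, beside 4.97% and 4.61%, and 2 and 1 against TDAG51-/-Tg2, beside 4.2% and 4.47%. The list's median log2 ratios were -0.41 and -0.37, beside -0.0098 and 0.0066 for all genes. Without normalisation the counts against both controls were 6 lower and 1 higher, a setting for which no share of all genes is given. Lower were Akap5, an anchor of kinases and phosphatases at the synapse (-1.02 and -1.54), and Homer1 (-1.12 and -1.24), which links metabotropic receptors to the scaffold. The other Homer1 probes were lower by less than 2-fold, at -0.62 and -0.85 and at -0.62 and -0.91. Shank3, a master scaffold gene, was at -1.75 and -0.36. Homer3, the family member known from Purkinje cells, was higher (1.37 and 1.49). By the mean of both ratios Dlgap2 (-0.05 and 0.26) and Dlg1 (-0.20 and -0.11) came next among genes with a measured fold on both arrays. The other Dlg1 probes stood at 0.88 to 1.03 over TDAG51+/+ and 0.38 to 0.66 over TDAG51-/-Tg2, and the other Dlgap2 probe at 0.26 and -0.28. Shank1 was saturated and has no fold, although it is counted as measured and enters the list medians, and Grip2 was not well above background.

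Of 12 NMDA receptor partners and signalling genes, 1 was lower and 1 was higher than both controls, beside 1.7% and 2.65% of all measured genes. The counts were 1 and 1 against TDAG51+/+, beside 4.97% and 4.61%, and 3 and 1 against TDAG51-/-Tg2, beside 4.2% and 4.47%. The list's median log2 ratios were -0.47 and -0.42, beside -0.0098 and 0.0066 for all genes, and they were -0.0085 and -0.15 when a gene stood by the median of its probes. This list also holds Grin3b (-0.13 and -0.13), a GluN3 subunit gene that is not among the members. Under median centring the counts against both controls were 4 lower and 0 higher, again with no share of all genes given. Lower was Rasgrf2, a calcium-regulated Ras activator (-1.84 and -1.18). Ptk2b, a calcium-responsive tyrosine kinase, was at -0.96 and -1.14 by its brightest probe and at 1.00 and 0.36 by its other probe, A_52_P684647. Neto1, an auxiliary protein of NMDA and kainate receptors, was at -0.89 and -1.01, and its other probe at -0.61 and -1.04. Higher was the receptor tyrosine kinase gene Ephb2 (1.31 and 1.01), by its brightest probe alone. Its other probe, A_51_P163714, stood at 1.38 over TDAG51+/+ and -0.97 over TDAG51-/-Tg2, in opposite directions. Nos1, the neuronal nitric oxide synthase, stood at 0.60 and 0.52 (0.63 and 0.05 by its other probe) and the kinase gene Fyn at 0.17 and 0.47. Camk2b was saturated in TDAG51+/+ and has no measured fold on the first array. Camk2a was saturated in both control channels at its brightest probe, with bounds of at least 1.82-fold and at least 1.70-fold lower. Whether it passed 2-fold is therefore not known, and its other probe stood at 0.83 and 0.86. Both genes enter the list medians.

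**Figure D4:**
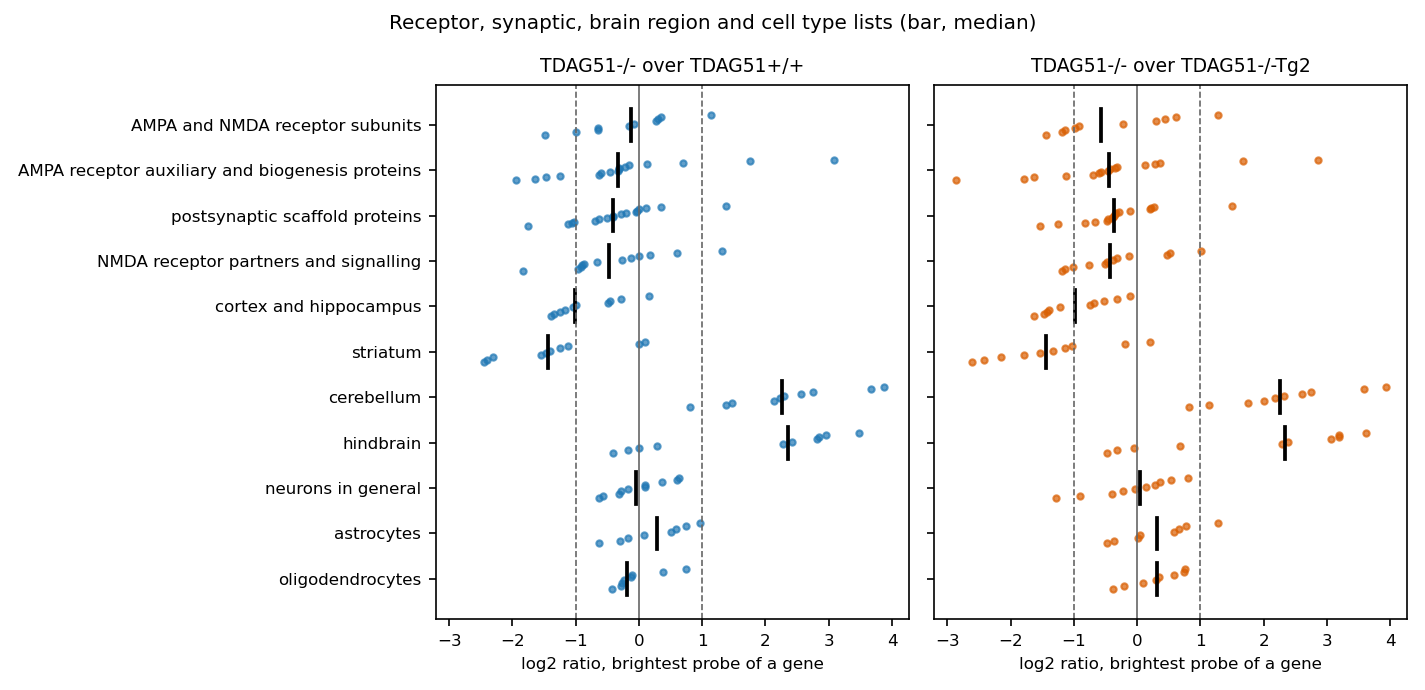
Log2 ratio (x axis, brightest probe of a gene) of TDAG51-/- to TDAG51+/+ (left) and to TDAG51-/-Tg2 (right) for the genes of each list (y axis), with dashed lines at 2-fold and bars at the list median. Saturated genes are drawn at the ratio of their saturated readings, which is no measured fold, and they enter the medians. The 10 receptor genes spread from Grin2b to Gria4 on both sides of 0, the cerebellar markers lie above 0 and most striatal markers lie left of the lower dashed line.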

How the data were processed

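RNA of TDAG51-/- (Cy3) and each control (Cy5) was hybridised to 1 array per comparison. The authors deposited spot intensities and log10 ratios (Cy5 over Cy3) made by Agilent Feature Extraction 9.5.3.1, and a table of log2 ratios whose normalisation is not given in the sources used here. Its values followed the scanner's ratio turned to TDAG51-/- over control (r = 0.98 on each array), with medians of -0.011 and -0.0097. Mean intensities were background-corrected (normexp, offset 50) and loess-normalised within each array in limma 3.58.1, without control spots, and levels were scaled between arrays (Aquantile). The steps were tested on simulated data. Outlier spots were left out. A probe was measured when well above background in at least 1 channel. Of 41174 probes, 32719 were matched to RefSeq symbols (GRCm38.p6), giving 19505 genes. Members, gene lists and the rule for named genes (every member, the 3 lowest and 3 highest of each list, and genes past 2-fold against both controls) were chosen with earlier results of these data known.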

Additional observations from a re-analysis of the deposited data

How the results depend on the processing

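No paired analysis was possible because each comparison has a single array, and for the same reason no array could be left out. Shares of all measured probes are given for the reported 2-fold setting alone. The counts below therefore show how far calls move between settings and are not a result about the members. Of the member counts, those lower than TDAG51+/+ were 2 as reported, 4 under median centring, 4 without normalisation, 4 in the deposited ratios and 8 at a 1.5-fold threshold. Counts lower than both controls were 4 under median centring, 4 without normalisation and 5 at 1.5-fold, in place of 2. Counts higher than TDAG51-/-Tg2 were 1 without normalisation and 4 at 1.5-fold, and counts higher than both controls were 1 under median centring and 1 without normalisation, in place of 2. Counts lower than TDAG51-/-Tg2 (5) and higher than TDAG51+/+ (3) stayed within 1.5 times, and background and saturation filters moved no member count. None of the log2 ratios past 2-fold changed sign. Without normalisation all measured probes had medians of -0.19 and -0.25, and 5 of 42 member ratios changed sign, against 1 of 42 under median centring and 0 of 42 with no offset, the scanner software's ratio or the deposited ratio.

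Medians of the AMPA auxiliary list over TDAG51+/+ were -0.39 with no offset, -0.40 in the scanner's ratio, -0.49 under median centring, -0.64 without normalisation and -0.41 as deposited. Over TDAG51-/-Tg2 they were -0.51 (scanner), -0.64 (median centring), -0.82 (no normalisation) and -0.51 (deposited). Scaffold medians were -0.62 and -0.47 under median centring, -0.77 and -0.65 without normalisation, and -0.49 and -0.54 by the median of a gene's probes. NMDA partner medians were -0.68 and -0.54, -0.84 and -0.72, and -0.0085 and -0.15 in the same order. Scaffold genes lower than TDAG51+/+ numbered 7 without normalisation and 2 by the median of a gene's probes, those lower than TDAG51-/-Tg2 numbered 6 without normalisation, and those lower than both controls numbered 6 without normalisation, 1 as deposited and 1 by the probe median. NMDA partner genes lower than TDAG51+/+ numbered 2 in the scanner's ratio, 4 under median centring and 5 without normalisation, those lower than TDAG51-/-Tg2 numbered 5 without normalisation, and those lower than both numbered 4 under median centring and 4 without normalisation. NMDA partner genes higher than TDAG51-/-Tg2, and those higher than both controls, numbered 0 under median centring, 0 without normalisation and 0 by the probe median. No share of all genes is given for these settings, and the causes were not tested.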

Other observations

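Probes that are no members also lie on the same strand within the span of the member probes or 5 kb beyond it, a search chosen after the member values were seen. In the Gria4 span, AK048907 had log2 ratios of 1.56 over TDAG51+/+ and 1.23 over TDAG51-/-Tg2, AK031091 of 1.17 and 0.69, and AK051374 of 0.95 and 0.76. All were higher in TDAG51-/-, as the named Gria4 probes were. AK078334 was well above background in TDAG51-/- and not in the controls, with bounds of at least 1.07-fold and at least 1.02-fold higher. Beside the 3′ Grin2b pair, TC1526673 was saturated in both control channels and was at least 1.64-fold lower than in TDAG51+/+ and at least 2.17-fold lower than in TDAG51-/-Tg2. The adjacent A_52_P248920 was 1.51-fold and 1.17-fold lower, and A_51_P265765 stood at 0.21 and -0.07. AK082439 in the Gria2 span stood at -0.27 and -0.43, and AK084651 in the Gria3 span at -0.44 and -0.27. AU051595 in the Grin2a span stood at 0.30 and 0.10, where the Grin2a probe stood at -0.64 and -0.99. In the Grin3a span AK046827 and AK044147 were not well above background in any channel, and the Ppp3r2 probe A_51_P136810 stood at 0.17 and -0.16. Another Ppp3r2 probe, A_51_P136814, was at least 1.61-fold lower in TDAG51-/- than in TDAG51+/+. On the second array it was not well above background in either channel. Which gene the sequences known by accession belong to is not given in the gene name column.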
